A study of Mus musculus with 12 samples.

Results

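The 10 chemokine genes described here are Cxcl1, Cxcl2, Cxcl5, Cxcl10, Cxcl12, Cxcl16, Ccl2, Ccl5, Ccl7 and Cx3cl1, taken by name from a table of read counts for 48709 genes in mouse pancreatic islets. All 10 had enough reads to be tested, as had 17294 genes of the table. The islets came from female mice of the NSG strain, an immunodeficient background that lacks mature T, B and natural killer cells. Every mouse, controls included, was labelled RIP-DTR Htz, read as heterozygous for a transgene in which the rat insulin promoter drives the diphtheria toxin receptor, so that the toxin kills beta cells. RNA was sequenced from 4 groups of 3 libraries: untreated islets (CTRL), and islets labelled 1, 3 and 5 DPA, read here as days post-ablation, after diphtheria toxin (DT). The labels give no age, dose or number of mice per library. They do not say that the 3 libraries of a group came from separate mice, so the spread behind each p-value is that between libraries and could be technical.

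Chemokines are small secreted proteins that bind G protein-coupled receptors and steer the migration of leukocytes. Cxcl1, Cxcl2 and Cxcl5 attract neutrophils through Cxcr2, and Cxcl10 attracts activated T and natural killer cells through Cxcr3. Ccl2 and Ccl7 recruit monocytes through Ccr2, Ccl5 acts on T cells and monocytes, Cxcl16 and Cx3cl1 are made as membrane proteins that proteases release, and Cxcl12 retains cells through Cxcr4 in resting tissue. In islets, beta cells, macrophages, endothelial and stromal cells can all make chemokines when inflammatory cytokines activate the transcription factor NF-kB.

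Islets at 3 and 5 DPA carried far more RNA of Cxcl1, Cxcl2 and Cxcl10 than untreated islets, and islets at 1 DPA did not. At 1 DPA, 3 of the 10 genes fell against CTRL by edgeR's quasi-likelihood test (Benjamini-Hochberg adjusted p under 0.05), namely Ccl5, Ccl7 and Cx3cl1; of all genes tested, 22.4% were lower and 29.2% higher. At 3 DPA, 4 of the 10 rose against CTRL, Cxcl1, Cxcl2, Cxcl10 and Ccl2, while 10.2% of all genes were higher and 2.37% lower. At 5 DPA, 3 of the 10 rose against CTRL, Cxcl1, Cxcl2 and Cxcl10, while 5.87% of all genes were higher and 2.67% lower. The median log2 fold change of the 10 genes was -0.72 at 1 DPA, 0.31 at 3 DPA and 0.84 at 5 DPA, beside -0.05, -0.01 and 0.01 over all genes tested.

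The number of calls depended on single libraries and on the samples fitted. At 1 DPA it was 5 without CTRL replicate 3, 1 without 1 DPA replicate 1, and 1 with only CTRL and 1 DPA in the fit, which tested 7 of the 10 genes. At 3 DPA it was 3, with Ccl2 lost, under no filter and with only CTRL and 3 DPA in the fit. Ccl2 was also lost when any 1 library other than CTRL replicate 1 or CTRL replicate 3 was left out. At 5 DPA the number was 5 without CTRL replicate 1 and 1 with only CTRL and 5 DPA in the fit. No gene of the 10 passed in the opposite direction at any of the 3 times by edgeR, DESeq2 or limma-voom, nor at an unadjusted p under 0.05 by edgeR, although Cxcl1 was called higher at 1 DPA without CTRL replicate 1.

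All the differences called between the days were rises over 1 DPA. At 3 DPA, 6 of the 10 genes were higher than at 1 DPA (Cxcl1, Cxcl2, Cxcl10, Ccl2, Ccl7 and Cx3cl1), against 20.4% of all genes higher and 24.7% lower. At 5 DPA, 9 of the 10 were higher than at 1 DPA, all but Cxcl12, against 26.3% of all genes higher and 29.8% lower. The median log2 fold change of the 10 genes was 3.52 at 3 DPA over 1 DPA and 3.40 at 5 DPA over 1 DPA, beside 0.04 and 0.01 over all genes. Between 5 and 3 DPA edgeR called 0 of the 10 genes, with 2 lower at an unadjusted p under 0.05, 0 called by DESeq2 and 2 lower by limma-voom; of all genes, 0.705% were higher and 2.46% lower at 5 DPA. Over the 4 groups together, 6 of the 10 genes differed, as did 57.4% of all genes tested. The 3 comparisons with CTRL share the CTRL libraries, and those with 1 DPA share the 1 DPA libraries.

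**Figure D1:**
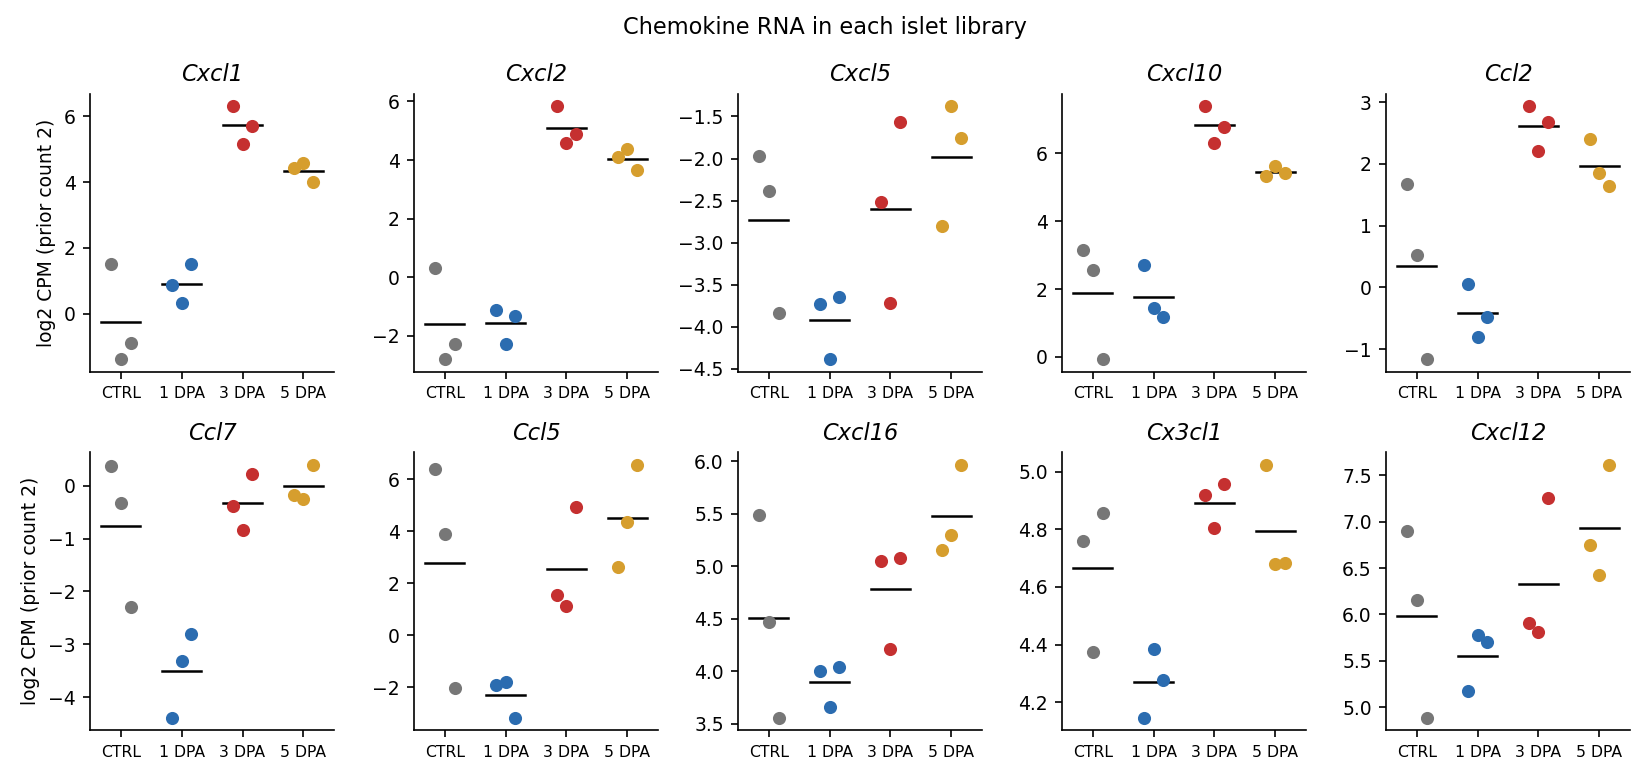
Each panel plots 1 chemokine gene; the y axis is log2 counts-per-million (CPM, prior count 2), each point is 1 of 3 libraries in CTRL and at 1, 3 and 5 DPA, and the bar is the mean of the points. For Cxcl1, Cxcl2 and Cxcl10 all 3 and 5 DPA points lie above all CTRL and 1 DPA points, while for Ccl5 the CTRL points span most of the axis.

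Libraries held 29867100 to 50012600 counts. Untreated libraries differed from each other in markers of non-endocrine cells. Summed CPM over 13 macrophage markers was 718, 482 and 302 in CTRL replicates 1, 2 and 3, and over 12 stromal, stellate and pericyte markers it was 2471, 1885 and 799. Over 12 acinar markers it was 45143, 79251 and 12140, highest in replicate 2. Cxcl10, Cxcl12, Cxcl16, Ccl2, Ccl5 and Ccl7 were also highest in CTRL replicate 1 and lowest in CTRL replicate 3; the part of these cells in that spread was not tested. In bulk tissue, fewer cells of a type and less RNA per cell cannot be told apart. Insulin transcripts marked the tissue as islets, with Ins1 at 27398 ± 7038 CPM at 1 DPA against 48038 ± 3846 CPM in CTRL (SD, n = 3 each). At 1 DPA 9 of 11 beta cell markers were lower, beside 22.4% of all genes tested. At 3 DPA 4 of the 11 were lower and at 5 DPA 6, beside 2.37% and 2.67% of all genes. With 1 library left out these counts were 1 to 7 and 1 to 6. The markers summed to 184017 to 204768 CPM in CTRL, 106882 to 163725 at 1 DPA, 151435 to 188917 at 3 DPA and 154125 to 208054 at 5 DPA. CPM are TMM-scaled, and differences are log2 fold changes ± SE.

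The promoters of 5 of the 10 genes, Cxcl1, Cxcl2, Cxcl10, Cxcl12 and Cx3cl1, were found in the RefSeq promoter table (build GRCm38.p6). Both strands of the window spanning 250 bases before to 50 bases after the start site were searched. The kappaB motif, the site bound by NF-kB, occurred in 3 of the 5 windows, those of Cxcl1, Cxcl2 and Cxcl10, and in 4.51% of all 32851 windows of the same length. These were the 3 genes that rose at both 3 and 5 DPA. Cxcl5, Cxcl16, Ccl2, Ccl5 and Ccl7 had no entry and could not be searched. Whether the motif bears on the rise was not tested. The 250 bases upstream of the start are shown for Cxcl1, Cxcl2 and Cxcl10, with Cxcl12, which has no match, for contrast. They lie at chr5:90890995-90891244 (plus strand) for Cxcl1, chr5:90903649-90903898 (plus strand) for Cxcl2, chr5:92348890-92349139 (minus strand) for Cxcl10 and chr6:117168285-117168534 (plus strand) for Cxcl12. Each is written 5′ to 3′ on the strand of the gene, and capitals mark kappaB matches.
Cxcl1: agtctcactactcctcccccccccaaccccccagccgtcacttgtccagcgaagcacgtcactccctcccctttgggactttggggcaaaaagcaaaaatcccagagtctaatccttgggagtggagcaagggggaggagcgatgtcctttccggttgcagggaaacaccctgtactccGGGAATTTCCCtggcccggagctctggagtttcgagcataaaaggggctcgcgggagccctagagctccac
Cxcl2: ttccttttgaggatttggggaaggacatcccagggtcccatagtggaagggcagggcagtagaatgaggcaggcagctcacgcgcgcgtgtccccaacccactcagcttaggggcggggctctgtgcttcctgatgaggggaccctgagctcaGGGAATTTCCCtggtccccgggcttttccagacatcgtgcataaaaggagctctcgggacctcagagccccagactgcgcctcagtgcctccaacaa
Cxcl10: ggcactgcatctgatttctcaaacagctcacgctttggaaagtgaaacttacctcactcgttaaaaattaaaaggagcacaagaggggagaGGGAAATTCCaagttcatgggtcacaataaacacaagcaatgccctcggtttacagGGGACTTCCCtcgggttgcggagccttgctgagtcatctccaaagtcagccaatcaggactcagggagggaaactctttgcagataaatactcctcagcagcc
Cxcl12: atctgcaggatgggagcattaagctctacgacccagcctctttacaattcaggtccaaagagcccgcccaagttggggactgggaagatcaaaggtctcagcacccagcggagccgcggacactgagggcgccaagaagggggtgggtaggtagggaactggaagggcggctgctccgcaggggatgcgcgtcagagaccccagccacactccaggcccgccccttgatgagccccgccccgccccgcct
In Cxcl1 and Cxcl2 the 10-base motif was found on both strands, the matches offset by 1 base, with the upstream end 71 bases before the Cxcl1 start and 97 bases before the Cxcl2 start. Cxcl10 holds 2 kappaB matches, starting 159 and 103 bases upstream. It also holds an interferon-stimulated motif (GAAANNGAA) starting 213 bases upstream and an AP-1 motif (TGACTCA, on the reverse strand) starting 74 bases upstream, which 8.56% and 5.202% of all windows hold. Neither the cAMP response motif (TGACGTCA, in 1.79% of windows), the EGR motif (GCGGGGGCG, 2.91%) nor the SRF CArG box (1.63%) was found in the 5 windows. The exact TATA box letters TATAAA occurred in Cx3cl1 alone, 6 bases before the RefSeq start, and in 13.6% of windows. That place lies inside the annotated Cx3cl1 gene, which begins at 94772009, while the 250 upstream bases end at 94772179. The sequences shown for Cxcl1 and Cxcl2 hold CATAAA, which differs by 1 letter and was not counted. A match describes letters in the window and does not show that a factor binds there.

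**Figure D2:**
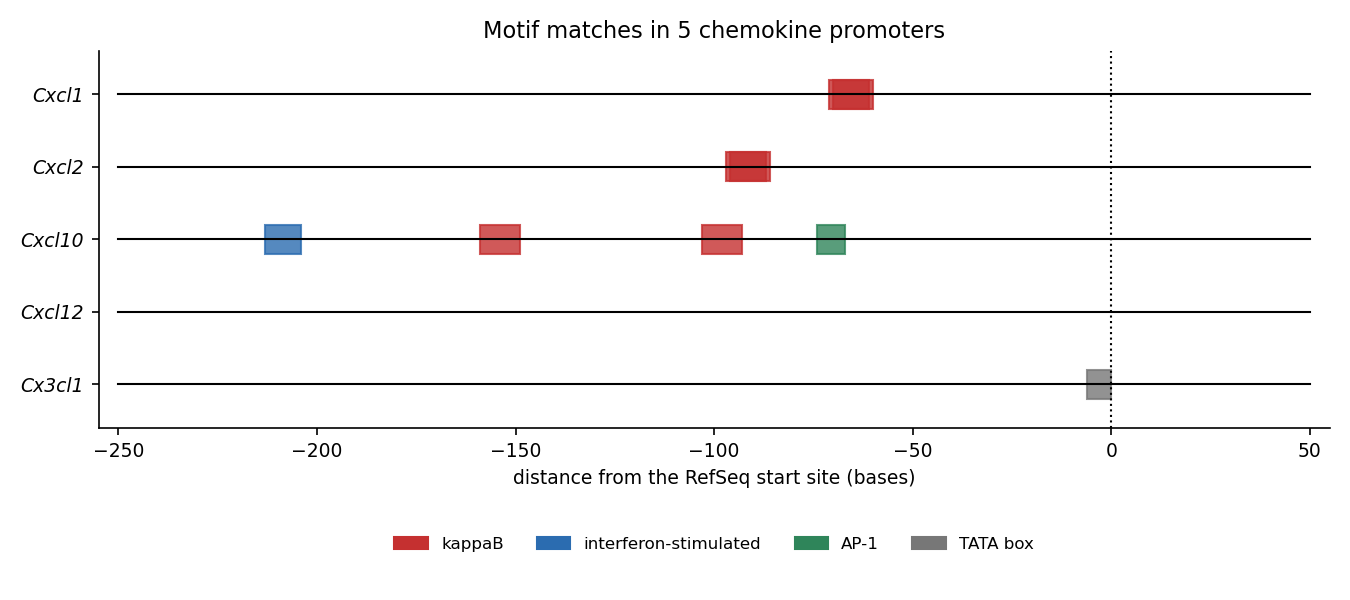
Motif matches on either strand are drawn as boxes by distance in bases from the RefSeq start site (dotted line at 0) for the 5 chemokine promoters with an entry. Cxcl1 and Cxcl2 each hold 1 kappaB site matched on both strands, Cxcl10 holds 2 plus an interferon-stimulated and an AP-1 match, and Cxcl12 holds none.

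The neutrophil chemokines Cxcl1 and Cxcl2 made the largest rises against CTRL among the 10 genes, at 3 and at 5 DPA. The genes are neighbours on chromosome 5 (mm10; Cxcl1 at 90891241-90893115 and Cxcl2 at 90903871-90905938, both plus strand), 10.8 kb apart. Cxcl1 had 2.81, 0.336 and 0.488 CPM in CTRL, 1.79, 1.21 and 2.79 CPM at 1 DPA, 79.1, 35.9 and 51.8 CPM at 3 DPA, and 21.2, 24.0 and 16.0 CPM at 5 DPA (replicates 1 to 3). All 3 and 5 DPA libraries lay above all CTRL and 1 DPA libraries, and CTRL replicate 1 stood above the other CTRL libraries. Cxcl1 was 47.0-fold higher at 3 DPA than in CTRL (log2 fold change 5.55 ± 0.70, adjusted p = 0.000675) and 17.3-fold higher at 5 DPA (4.11 ± 0.67, adjusted p = 0.00854). At 1 DPA the groups overlapped (0.69 ± 0.72, adjusted p = 0.439). Without CTRL replicate 1 the log2 fold change at 1 DPA was 2.16 and passed the test (adjusted p = 0.0145). With only CTRL and 5 DPA in the fit, the 5 DPA rise of Cxcl1 missed the threshold (adjusted p = 0.0718).

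Cxcl2 had 1.196, 0.0960 and 0.155 CPM in CTRL, 0.413, 0.158 and 0.349 CPM at 1 DPA, 57.2, 23.9 and 29.6 CPM at 3 DPA, and 17.0, 20.8 and 12.7 CPM at 5 DPA. It showed the same separation as Cxcl1, with every 3 and 5 DPA library above every CTRL and 1 DPA library. It was 78.9-fold higher at 3 DPA than in CTRL (6.30 ± 0.73, adjusted p = 0.000401) and 36.0-fold higher at 5 DPA (5.17 ± 0.71, adjusted p = 0.00419). These calls held under all alternative tools, scalings, filters and left-out libraries. At 1 DPA the log2 fold change was -0.61 ± 0.95 (adjusted p = 0.608). Of the 2121 stretches of 31 bases in Cxcl2 transcripts, 7.59% also occur in Cxcl3, a close relative whose reads could be shared; Cxcl3 had at most 17 counts in any library, and no stretch of Cxcl1 was shared with another gene.

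The balance between Cxcl1 and Cxcl2 also moved. On the per-length scale of deposited TPM (transcripts-per-million), the ratio of Cxcl1 to Cxcl2 was 4.87, 7.26 and 6.52 in CTRL, 8.98, 15.9 and 16.6 at 1 DPA, 2.86, 3.11 and 3.63 at 3 DPA, and 2.60, 2.39 and 2.62 at 5 DPA. The 4 groups did not overlap in this ratio, which was highest at 1 DPA and lowest at 5 DPA; no test was made, and the CTRL and 1 DPA ratios rest on 57 and 32 Cxcl2 counts in all. Cxcl5, 129.6 kb upstream of Cxcl1, barely reached detection, with 15 counts over the CTRL libraries, 2 at 1 DPA, 21 at 3 DPA and 31 at 5 DPA. It had 0.0950, 0.337 and 0.248 CPM at 5 DPA against 0.0275, 0 and 0.0317 CPM at 1 DPA. The ratio of summed counts at 5 DPA over 1 DPA was 11.8, with an exact binomial 95% interval of 2.99 to 101.5 that covers counting error only. edgeR called the difference (adjusted p = 0.0232). The call ended without 1 DPA replicate 1 (0.0535), 1 DPA replicate 2 (0.0797), 5 DPA replicate 2 or 3 DPA replicate 3, Cxcl5 was not tested with only the 2 groups in the fit, and it passed no test against CTRL with all libraries in the fit.

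Cxcl10, the interferon-inducible ligand of Cxcr3, followed the timing of Cxcl1 and Cxcl2. It had 8.81, 5.88 and 0.909 CPM in CTRL, 6.44, 2.69 and 2.22 CPM at 1 DPA, 167.6, 79.3 and 109.6 CPM at 3 DPA, and 40.3, 49.6 and 42.5 CPM at 5 DPA. Each group of 3 and 5 DPA libraries lay above all CTRL and 1 DPA libraries, while CTRL and 1 DPA overlapped. Cxcl10 was 23.1-fold higher at 3 DPA than in CTRL (4.53 ± 0.69, adjusted p = 0.00241) and 8.58-fold higher at 5 DPA (3.10 ± 0.66, adjusted p = 0.0243). The 5 DPA call ended with only the 2 groups in the fit (adjusted p = 0.0981), and when CTRL replicate 2 (0.0707) or any of 5 DPA replicates 1, 2 and 3 (0.0730, 0.0564 and 0.0555) was left out, with log2 fold changes of 3.01 to 3.19. Cxcl10 (chromosome 5, 92346638-92348889, minus strand) overlaps Art3 on the opposite strand, and whether counting used strand is not given in the sources used here. Art3 had 7.40 ± 0.163 CPM at 3 DPA against 6.36 ± 0.772 CPM in CTRL (SD, n = 3 each), a difference that missed the threshold (0.22 ± 0.14, adjusted p = 0.393).

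At 5 DPA all libraries of Cxcl1, Cxcl2 and Cxcl10 lay below all 3 DPA libraries, but the differences missed the threshold. The log2 fold change of 5 over 3 DPA was -1.44 ± 0.55 for Cxcl1 (adjusted p = 0.210), -1.13 ± 0.54 for Cxcl2 (adjusted p = 0.322) and -1.43 ± 0.59 for Cxcl10 (adjusted p = 0.254). limma-voom called Cxcl1 (-1.38, adjusted p = 0.0254) and Cxcl10 (-1.37, adjusted p = 0.0398) lower. Against 1 DPA, Cxcl1, Cxcl2 and Cxcl10 were higher at 3 DPA by 4.86, 6.91 and 4.96 on the log2 scale (adjusted p = 0.000353, 0.000102 and 0.000551). At 5 DPA they were higher than at 1 DPA by 3.42, 5.78 and 3.54 (adjusted p = 0.00161, 0.000182 and 0.00214).

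**Figure D3:**
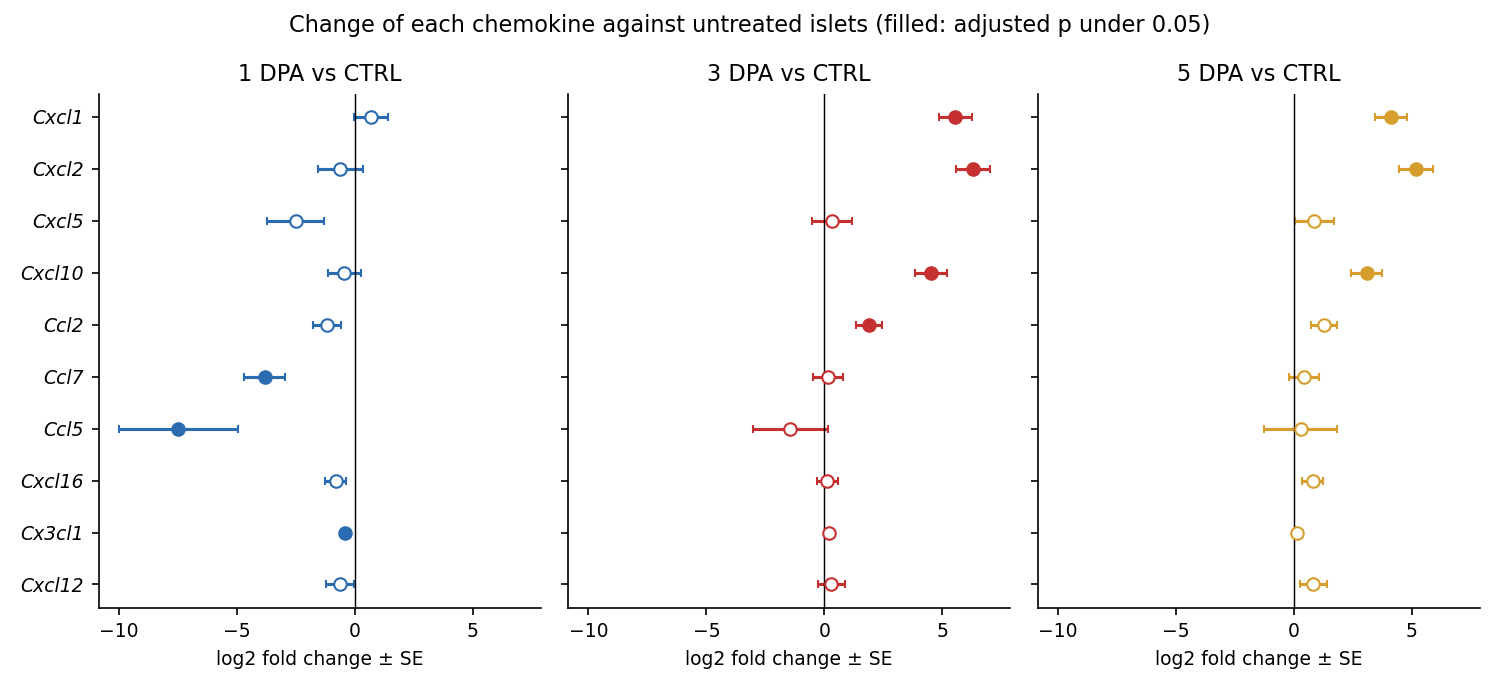
Log2 fold change ± SE of each of the 10 chemokines (rows) against CTRL at 1, 3 and 5 DPA, with filled points where the adjusted p was under 0.05. Ccl5, Ccl7 and Cx3cl1 are filled below 0 at 1 DPA; Cxcl1, Cxcl2 and Cxcl10 are filled above 0 at 3 and 5 DPA, and Ccl2 at 3 DPA.

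The monocyte chemokines Ccl2 and Ccl7, 8.3 kb apart on chromosome 11 (82035571-82037453 and 82045712-82047525, plus strand), were both higher at 3 and 5 DPA than at 1 DPA, and of the pair Ccl2 alone rose above CTRL, at 3 DPA. Ccl2 had 3.14, 1.39 and 0.399 CPM in CTRL, 0.991, 0.528 and 0.666 CPM at 1 DPA, 7.60, 4.55 and 6.36 CPM at 3 DPA, and 5.23, 3.57 and 3.06 CPM at 5 DPA. Its 3 DPA libraries lay above all CTRL libraries, whereas at 5 DPA replicate 3 fell under CTRL replicate 1. Ccl2 was 3.77-fold higher at 3 DPA than in CTRL (1.92 ± 0.55, adjusted p = 0.0444). This call ended with no filter (0.0642), with only the 2 groups in the fit (0.168) and when any 1 library other than CTRL replicate 1 or CTRL replicate 3 was left out (adjusted p 0.0547 to 0.157, log2 fold change 1.69 to 2.09). At 5 DPA the log2 fold change was 1.27 ± 0.55 (adjusted p = 0.179), and 2.14 without CTRL replicate 1 (adjusted p = 0.0229). From 1 DPA, Ccl2 was higher by 3.08 ± 0.59 at 3 DPA (adjusted p = 0.00175) and by 2.44 ± 0.59 at 5 DPA (adjusted p = 0.00478). The gene Gm17268, which overlaps Ccl2 on the opposite strand, had 0 counts in all libraries.

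Ccl7 had 0, 0.0528 and 0.0951 CPM at 1 DPA against 1.25, 0.744 and 0.155 CPM in CTRL, which is 5 counts over the 1 DPA libraries and 86 over the CTRL libraries. The groups did not overlap, and Ccl7 fell at 1 DPA (log2 fold change -3.82 ± 0.87, adjusted p = 0.00324). With only CTRL and 1 DPA in the fit, Ccl7 did not pass the count filter and was not tested. It had 0.719, 0.509 and 1.12 CPM at 3 DPA and 0.836, 0.793 and 1.27 CPM at 5 DPA, within the CTRL spread except for 5 DPA replicate 3. The log2 fold change against CTRL was 0.14 ± 0.63 at 3 DPA (adjusted p = 0.925) and 0.43 ± 0.63 at 5 DPA (adjusted p = 0.729). Against 1 DPA, Ccl7 was higher at 3 DPA by 3.96 ± 0.87 (adjusted p = 0.00317) and at 5 DPA by 4.25 ± 0.86 (adjusted p = 0.00142). The ratio of Ccl2 to Ccl7 in TPM was 1.77, 1.32 and 1.81 in CTRL, 7.04 and 4.93 in 1 DPA replicates 2 and 3 (none for replicate 1, where Ccl7 was at 0), 7.43, 6.30 and 4.01 at 3 DPA, and 4.40, 3.17 and 1.70 at 5 DPA, where replicate 3 lay within the CTRL range.

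Ccl5, a T cell and monocyte attractant made by lymphocytes and other activated cells, had the widest spread of the 10 genes within CTRL, 3 DPA and 5 DPA. It had 82.9, 14.9 and 0.200 CPM in CTRL, 0.220, 0.238 and 0.0634 CPM at 1 DPA, 2.86, 2.12 and 30.6 CPM at 3 DPA, and 6.12, 20.4 and 93.8 CPM at 5 DPA. The untreated libraries alone spanned 415-fold, and CTRL replicate 3 lay among the 1 DPA libraries. Ccl5 fell at 1 DPA by the test (-7.48 ± 2.52, adjusted p = 0.0343). That call ended with limma-voom (-5.02, adjusted p = 0.510), with no filter (0.0541), and when CTRL replicate 1 (-5.42, 0.109) or any of 1 DPA replicates 1, 2 and 3 (0.0911, 0.0903 and 0.0853) was left out. With only CTRL and 1 DPA in the fit, Ccl5 did not pass the count filter and was not tested. The log2 fold change was -1.45 ± 1.59 at 3 DPA (adjusted p = 0.651) and 0.29 ± 1.55 at 5 DPA (adjusted p = 0.934), with 0.64 at 3 DPA without CTRL replicate 1 and -1.30 at 5 DPA without 5 DPA replicate 3. Ccl5 was higher at 5 than at 1 DPA (7.78 ± 2.53, adjusted p = 0.0270), a call that ended with limma-voom and without 5 DPA replicate 3 or any 1 DPA library.

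The Ccl5-rich libraries were also those rich in Cd4 and in Cxcl9, another Cxcr3 ligand. These and the other single genes set beside Ccl5 here were picked out after their values were seen. Cd4 had 26.9, 19.2 and 0.200 CPM in CTRL, 0.578, 0.238 and 0.349 CPM at 1 DPA, 1.86, 0.877 and 17.1 CPM at 3 DPA, and 5.17, 10.3 and 43.2 CPM at 5 DPA. Cxcl9 had 13.7, 5.19 and 0 CPM in CTRL, 0.275, 0 and 0 CPM at 1 DPA, 0.614, 0.566 and 3.14 CPM at 3 DPA, and 0.893, 3.07 and 18.8 CPM at 5 DPA. In each group with high values, Ccl5, Cd4 and Cxcl9 peaked in the same replicate, which was CTRL replicate 1, 3 DPA replicate 3 and 5 DPA replicate 3. Cd79a, a B cell marker, did not share this pattern, with 5.28, 6.41 and 11.5 CPM in CTRL, 11.4, 10.7 and 9.51 CPM at 1 DPA, 7.24, 8.71 and 7.23 CPM at 3 DPA, and 2.93, 6.01 and 3.67 CPM at 5 DPA. In CTRL it was highest in replicate 3, where Ccl5 was lowest. Cxcl13 shared the CTRL and 5 DPA peaks, but at 3 DPA it was highest in replicate 2. Of 8 lymphocyte markers, Cd3e was at 0 counts in all 12 libraries. The summed level of the list was 11.7 to 33.1 CPM in CTRL, 9.93 to 11.9 at 1 DPA, 9.25 to 24.6 at 3 DPA and 8.17 to 48.6 at 5 DPA. The part of any cell type in the Ccl5 values was not tested.

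Of the membrane-bound chemokines, Cx3cl1 (fractalkine, the ligand of Cx3cr1 on monocytes and macrophages) changed little but evenly, and Cxcl16 (the ligand of Cxcr6) varied more. Cx3cl1 had 17.7, 20.8 and 19.3 CPM at 1 DPA against 27.1, 20.7 and 28.9 CPM in CTRL. It was lower at 1 DPA by the test (-0.41 ± 0.13, adjusted p = 0.0212), although CTRL replicate 2 lay among the 1 DPA libraries, and the call ended without CTRL replicate 3 (-0.31, 0.0722) or 1 DPA replicate 1 (-0.35, 0.0793). At 3 DPA it had 30.2, 27.9 and 31.03 CPM and at 5 DPA 32.5, 25.6 and 25.6 CPM, above all 1 DPA libraries. The rise from 1 DPA was 0.62 ± 0.13 at 3 DPA (adjusted p = 0.00239) and 0.53 ± 0.13 at 5 DPA (adjusted p = 0.00450), and neither day differed from CTRL past the threshold.

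Cxcl16 had 44.7, 22.2 and 11.8 CPM in CTRL, 15.9, 12.6 and 16.4 CPM at 1 DPA, 33.2, 18.5 and 33.7 CPM at 3 DPA, and 35.6, 39.3 and 62.5 CPM at 5 DPA. The CTRL libraries spread over most of that range, and no day differed from CTRL past the threshold. The log2 fold change against CTRL was -0.81 ± 0.45 at 1 DPA (adjusted p = 0.162), 0.12 ± 0.44 at 3 DPA (0.905) and 0.81 ± 0.44 at 5 DPA (0.306). Without CTRL replicate 3 it was -1.16 at 1 DPA (adjusted p = 0.0301), and without CTRL replicate 1 it was 1.43 at 5 DPA (adjusted p = 0.0435). Cxcl16 was higher at 5 than at 1 DPA, with no overlap (1.61 ± 0.46, adjusted p = 0.0138), a call that ended without 1 DPA replicate 2 (adjusted p = 0.0503).

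Cxcl12, the Cxcr4 ligand of resting stroma and endothelium, passed the test in no comparison. It had 119.7, 71.2 and 29.6 CPM in CTRL, 36.0, 54.8 and 52.2 CPM at 1 DPA, 60.1, 56.2 and 153.1 CPM at 3 DPA, and 107.1, 85.8 and 196.0 CPM at 5 DPA. All 5 DPA libraries lay above all 1 DPA libraries (1.44 ± 0.58, adjusted p = 0.0615), and DESeq2 (adjusted p = 0.0254) and limma-voom (0.0449) called that difference. Against CTRL the log2 fold change was -0.63 ± 0.58 at 1 DPA (adjusted p = 0.386), 0.29 ± 0.57 at 3 DPA (0.813) and 0.82 ± 0.57 at 5 DPA (0.432). Its profile was nearest to that of Cxcl16, with a root mean square difference of 0.37 in mean-centred log2 CPM over the 12 libraries, the smallest of all pairs among the 10 genes.

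Which chemokine was most abundant per length changed with the day. In TPM, Ccl5 led in CTRL with 74.5 ± 103 TPM (SD, n = 3), ahead of Cxcl12 at 19.4 ± 12.3, Cxcl16 at 18.8 ± 12.5 and Cx3cl1 at 14.2 ± 3.13, and these 4 did not differ beyond their spread. At 1 DPA Cxcl12 (15.0 ± 4.56 TPM), Cxcl16 (12.6 ± 2.71) and Cx3cl1 (12.5 ± 2.18) led, again within their spread. At 3 DPA Cxcl10 led with 173 ± 71.5 TPM, followed by Cxcl1 with 137 ± 58.5 and Cxcl2 with 43.9 ± 22.8. Cxcl10 lay above Cxcl1 in every 3 DPA and 5 DPA library. The ratio of Cxcl10 to Cxcl1 was 1.26, 1.31 and 1.26 at 3 DPA and 1.13, 1.23 and 1.57 at 5 DPA, with no test made. At 5 DPA Ccl5 had the highest mean, 97.6 ± 115 TPM, beside Cxcl10 at 64.6 ± 3.97, Cxcl1 at 50.5 ± 9.54 and Cxcl12 at 37.5 ± 16.9. Ccl5 was below Cxcl10 in 5 DPA replicates 1 and 2 and above it in replicate 3, and did not differ from it beyond its spread. Cxcl5 was lowest in all 4 groups.

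Some genes of the NF-kB pathway had risen at 1 DPA, when Cxcl1, Cxcl2 and Cxcl10 had not passed the test. Of 21 genes of the pathway and its upstream cytokines, 10 were higher and 4 lower at 1 DPA than in CTRL, 8 were higher at 3 DPA and 4 were higher at 5 DPA, with medians of 0.06, 0.16 and 0.68. Among all genes tested, 29.2% were higher and 22.4% lower at 1 DPA, 10.2% were higher at 3 DPA and 5.87% at 5 DPA. Nfkb2, a precursor subunit of NF-kB, was at 28.4 ± 12.8 CPM in CTRL, 448 ± 126 at 1 DPA, 171 ± 59.2 at 3 DPA and 94.6 ± 22.5 at 5 DPA (SD, n = 3 each). Its log2 fold changes on the 3 days were 3.98 ± 0.42, 2.59 ± 0.39 and 1.74 ± 0.38 (adjusted p = 3.95e-05, 0.00200 and 0.0264). Nfkbia, the inhibitor that NF-kB itself induces, rose by 2.40 ± 0.28, 2.07 ± 0.28 and 1.23 ± 0.27 on the 3 days, and the subunit gene Rel by 2.25 ± 0.28, 2.39 ± 0.29 and 1.48 ± 0.28. Nfkbiz, a nuclear co-regulator of NF-kB, rose by 1.43 ± 0.10, 1.23 ± 0.10 and 0.73 ± 0.10. Nfkbib and Rela rose at 1 DPA (1.84 ± 0.15 and 1.08 ± 0.11) and at 3 DPA (0.91 ± 0.14 and 0.50 ± 0.11).

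With all libraries in the fit, edgeR called no rise against CTRL for the cytokines that act upstream of NF-kB. Tnf was lower at 1 DPA (-2.75 ± 1.05, adjusted p = 0.0474), as was Il1a (-2.02 ± 0.63, adjusted p = 0.0183), and Il1b had 2.29 ± 1.15 CPM at 1 DPA against 3.81 ± 2.31 CPM in CTRL (-0.73 ± 0.51, adjusted p = 0.249). From 1 to 5 DPA, Tnf went from 0.0275, 0.290 and 0.0951 CPM to 1.43, 1.03 and 1.57 CPM, while Il1b overlapped between these days. Of the 21 genes of the list, 6 were higher and 10 lower at 5 than at 1 DPA, beside 26.3% and 29.8% of all genes tested. Against CTRL, the 10 rises at 1 DPA held in count whichever library was left out. The 4 falls at 1 DPA, which also included Traf1 and Tnfrsf1a, were 6 without CTRL replicate 3, 4 without 5 DPA replicate 3, 3 without CTRL replicate 2, and 1 or 2 without any 1 of the other 9 libraries, and 1 by limma-voom. At 3 DPA the 8 rises were 5 without 3 DPA replicate 1. At 5 DPA the 4 rises were 10 without CTRL replicate 1, 1 without CTRL replicate 2, and 2 without 5 DPA replicate 1 or 3. Zfp36, whose protein speeds the decay of chemokine mRNAs, did not pass the test on any day, while of 8 genes of mRNA decay and stability Hnrnpd (0.86 ± 0.09 and 0.60 ± 0.09) and Elavl1 (0.32 ± 0.06 and 0.29 ± 0.06) rose at 1 and 3 DPA and Zfp36l2 at 1 DPA (0.78 ± 0.17). Rises among all genes tested were 29.2% at 1 DPA and 10.2% at 3 DPA. At 3 DPA the 2 rises of the 8 genes were 4 without CTRL replicate 1 and 1 without 3 DPA replicate 1. At 5 DPA edgeR called 0 of the 8, with 3 higher and 1 lower at an unadjusted p under 0.05, 1 higher by DESeq2 and 0 by limma-voom, and 3 higher and 1 lower without CTRL replicate 1.

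**Figure D4:**
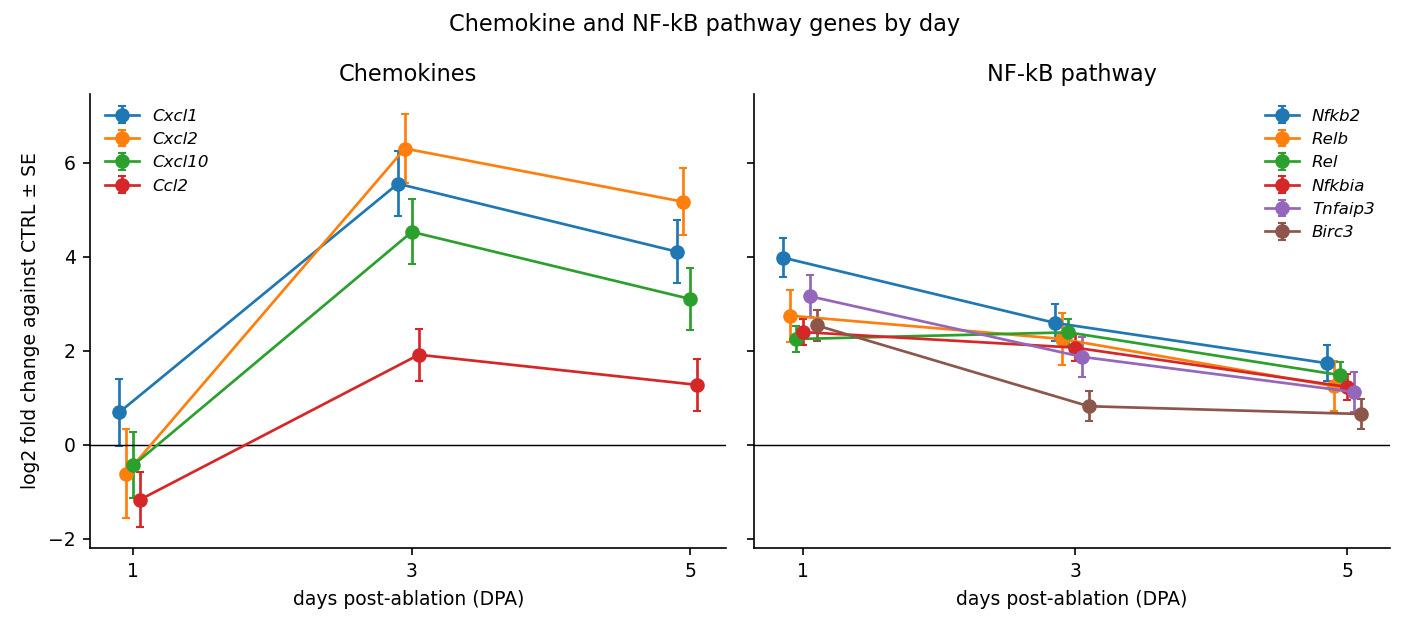
Log2 fold change ± SE against CTRL by day post-ablation for 4 chemokines (left) and 6 genes of the NF-kB pathway (right), each line 1 gene. The 6 are all among the 10 of 21 listed genes that were higher at 1 DPA. Another 4 of the 21 were lower, and the list median was 0.06. All 6 pathway genes lie above 2 at 1 DPA and are lower at 5 DPA, whereas Cxcl1, Cxcl2, Cxcl10 and Ccl2 lie near or below 0 at 1 DPA, except Cxcl1 at 0.69, and are highest at 3 DPA.

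Of 16 interferon response genes, 9 were lower, 2 higher and 5 not called at 1 DPA against CTRL, among them Mx1 (-3.09 ± 0.87, adjusted p = 0.0149), Oas1a (-1.50 ± 0.48, 0.0252) and Stat2 (-0.49 ± 0.13, 0.00782) on the lower side and Irf9 (0.49 ± 0.13, 0.00803) on the higher. The 9 falls numbered 13 with CTRL replicate 3 left out, 2 with CTRL replicate 1 or 2 left out, 2, 1 and 3 with 1 DPA replicates 1, 2 and 3 left out in turn, 4 with 3 DPA replicate 2 left out, and 1 by limma-voom. The 2 rises were 0 without 1 DPA replicate 3 and 1 or 2 without any 1 of the others. At 3 DPA, when Cxcl10 was highest, edgeR called 0 of the 16, with 2 higher at an unadjusted p under 0.05 and 0 by DESeq2 or limma-voom. At 5 DPA it called 0, with 3 higher at an unadjusted p under 0.05, 2 by DESeq2, 0 by limma-voom and 2 without CTRL replicate 1. The list's median was -0.88, -0.07 and 0.46 on the 3 days. For comparison, 22.4% of all genes tested were lower and 29.2% higher at 1 DPA.

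Of 16 chemokine receptor genes tested, 6 fell at 1 DPA and 2 rose at 5 DPA, beside 22.4% and 5.87% of all genes tested. Cx3cr1, the receptor of Cx3cl1, had 19.8 ± 6.20 CPM in CTRL, 10.03 ± 1.15 at 1 DPA, 20.9 ± 3.67 at 3 DPA and 40.5 ± 3.62 at 5 DPA. It fell at 1 DPA (-0.98 ± 0.20, adjusted p = 0.00191) and rose at 5 DPA (1.04 ± 0.20, adjusted p = 0.0114), with no overlap with CTRL on either day. Cxcr4, the receptor of Cxcl12, fell at 1 DPA (-1.14 ± 0.28, adjusted p = 0.00597), as did the scavenging receptors Ackr2 (-1.33 ± 0.32, 0.00429) and Ackr4 (-4.07 ± 1.28, 0.0236). Ackr4 had 6.94, 8.71 and 0.266 CPM in CTRL against 0.248, 0.343 and 0.349 CPM at 1 DPA. Its CTRL replicate 3 thus lay among the 1 DPA libraries. Cxcr3, the receptor of Cxcl10, had 1.01 ± 0.153 CPM at 5 DPA against 0.3501 ± 0.173 CPM in CTRL (1.52 ± 0.42, adjusted p = 0.0468). Ccr2, the receptor of Ccl2 and Ccl7, had 12.5 ± 1.58 CPM at 5 DPA against 4.76 ± 3.53 CPM in CTRL without overlap, and missed the threshold (1.39 ± 0.50, adjusted p = 0.113). The 6 falls were 10 without CTRL replicate 3, 3 without 1 DPA replicate 1 or 2, and 3 by limma-voom. The 2 rises were 6 without CTRL replicate 1, 0 without CTRL replicate 2, 2 without 1 DPA replicate 3, and 1 without any 1 of the other 9 libraries. At 3 DPA edgeR called 0 of the 16, as it did at an unadjusted p under 0.05, and so did DESeq2 and limma-voom; without CTRL replicate 1 it called 2.

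Cxcr2, the receptor through which Cxcl1, Cxcl2 and Cxcl5 act, stayed near the limit of detection. It had 14, 16 and 1 counts in CTRL, 2, 2 and 0 at 1 DPA, 3, 1 and 6 at 3 DPA and 2, 4 and 36 at 5 DPA. More than 16 counts were reached in 5 DPA replicate 3 alone, and no difference from CTRL passed the test. The neutrophil markers S100a8 and S100a9 had at most 9 and 13 counts in any library, also at 3 DPA, when Cxcl1 and Cxcl2 were highest. The summed level of 9 monocyte and neutrophil markers was 3.30 to 33.3 CPM in CTRL, 4.91 to 6.63 at 1 DPA, 10.3 to 16.4 at 3 DPA and 18.8 to 34.7 at 5 DPA. Of the 4 of them with enough reads to test, Csf3r and Plac8 fell at 1 DPA, calls that both ended by limma-voom and without CTRL replicate 1 or any 1 DPA library, and Ngp rose at 3 DPA. Ackr1 and Ackr3, which bind and scavenge chemokines, did not pass the test on any day.

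The proteases that release Cx3cl1 and Cxcl16 from the membrane fell at 1 DPA. Adam10 had 47.4 ± 1.34 CPM at 1 DPA against 71.7 ± 6.82 CPM in CTRL (-0.60 ± 0.07, adjusted p = 2.87e-05), and Adam17 had 23.5 ± 2.07 CPM at 1 DPA against 38.0 ± 3.81 CPM in CTRL (-0.69 ± 0.09, adjusted p = 3.48e-05). Dpp4, which trims the ends of several chemokines, also fell (-0.58 ± 0.12, adjusted p = 0.00162). Sdc4, a heparan sulfate proteoglycan that can bind chemokines, rose at 1 DPA (0.75 ± 0.15, adjusted p = 0.00122) and 3 DPA (0.84 ± 0.15, adjusted p = 0.00240). In all, of 11 genes tested in the shedding and processing list, 4 fell and 1 rose at 1 DPA, beside 22.4% and 29.2% of all genes tested. The falls were 8 without CTRL replicate 3 and 7 by DESeq2. At 5 DPA edgeR called 0 of the 11, with 4 higher at an unadjusted p under 0.05, 4 by DESeq2 and 1 by limma-voom, and 1 when CTRL replicate 1 or one of 3 DPA replicates 1 and 3 was left out.

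Among 18 other chemokine genes tested, 7 were lower and 3 higher at 1 DPA than in CTRL, beside 22.4% and 29.2% of all genes tested. Ccl25, a ligand of Ccr9, rose without overlap, with 7.41 ± 1.52 CPM at 1 DPA against 0.915 ± 0.247 CPM in CTRL (3.02 ± 0.28, adjusted p = 4.41e-06). At 3 DPA Ccl25 was at 1.58 ± 0.250 CPM and at 5 DPA at 1.75 ± 0.522 CPM. The lower ones included Ccl8, with 2 counts at 1 DPA against 81 in CTRL (ratio of summed counts 0.0292, exact binomial 95% interval 0.00348 to 0.109; adjusted p = 0.00371), Pf4 (-2.16 ± 0.55, 0.00625) and Ccl9 (-2.61 ± 0.75, 0.0140). The 7 falls numbered 2 with CTRL replicate 1 left out, 2, 3 and 4 with 1 DPA replicates 1, 2 and 3 left out in turn, and 1 by limma-voom, and the 3 rises were 1 without CTRL replicate 2 or 1 DPA replicate 3. edgeR called 0 of the 18 at 3 DPA and 0 at 5 DPA, with 2 higher at an unadjusted p under 0.05 on each day, 1 at 3 DPA and 2 at 5 DPA by DESeq2, and 0 by limma-voom. Without CTRL replicate 1 it called 2 higher at 3 DPA and 3 at 5 DPA, and 1 at 3 DPA without 3 DPA replicate 2 and 1 at 5 DPA without 3 DPA replicate 1.

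The summed level of macrophage markers was 302 to 718 CPM in CTRL, 180 to 232 at 1 DPA, 394 to 602 at 3 DPA and 760 to 1003 at 5 DPA, and no marker was at 0 in any library. Of 13 macrophage markers, 9 were lower at 1 DPA and 1, Ms4a7, was higher at 5 DPA (1.46 ± 0.25, adjusted p = 0.00593); at 1 DPA limma-voom called 4, and at 5 DPA 2 were called by DESeq2, by limma-voom and without CTRL replicate 1 or CTRL replicate 3 and 0 with only the 2 groups in the fit. Summed stromal, stellate and pericyte markers were 799 to 2471 CPM in CTRL, 847 to 975 at 1 DPA, 1620 to 2326 at 3 DPA and 3288 to 5315 at 5 DPA. Of the 12, 3 fell at 1 DPA (0 without CTRL replicate 1, 12 without CTRL replicate 3, 1 without 1 DPA replicate 2, 8 by DESeq2, 3 by limma-voom). At 5 DPA 2 of the 12 rose (4 without CTRL replicate 1, 1 without any 1 of the others, 6 by DESeq2, 6 by limma-voom). Summed endothelial markers were 943 to 1205 CPM in CTRL, 766 to 829 at 1 DPA, 1025 to 1097 at 3 DPA and 1123 to 1272 at 5 DPA, and 7 of the 12 fell at 1 DPA (11 without CTRL replicate 3). The part of these cells in the chemokine values was not tested. For these counts of markers, the shares over all genes tested were 22.4% lower at 1 DPA and 5.87% higher at 5 DPA.

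**Figure D5:**
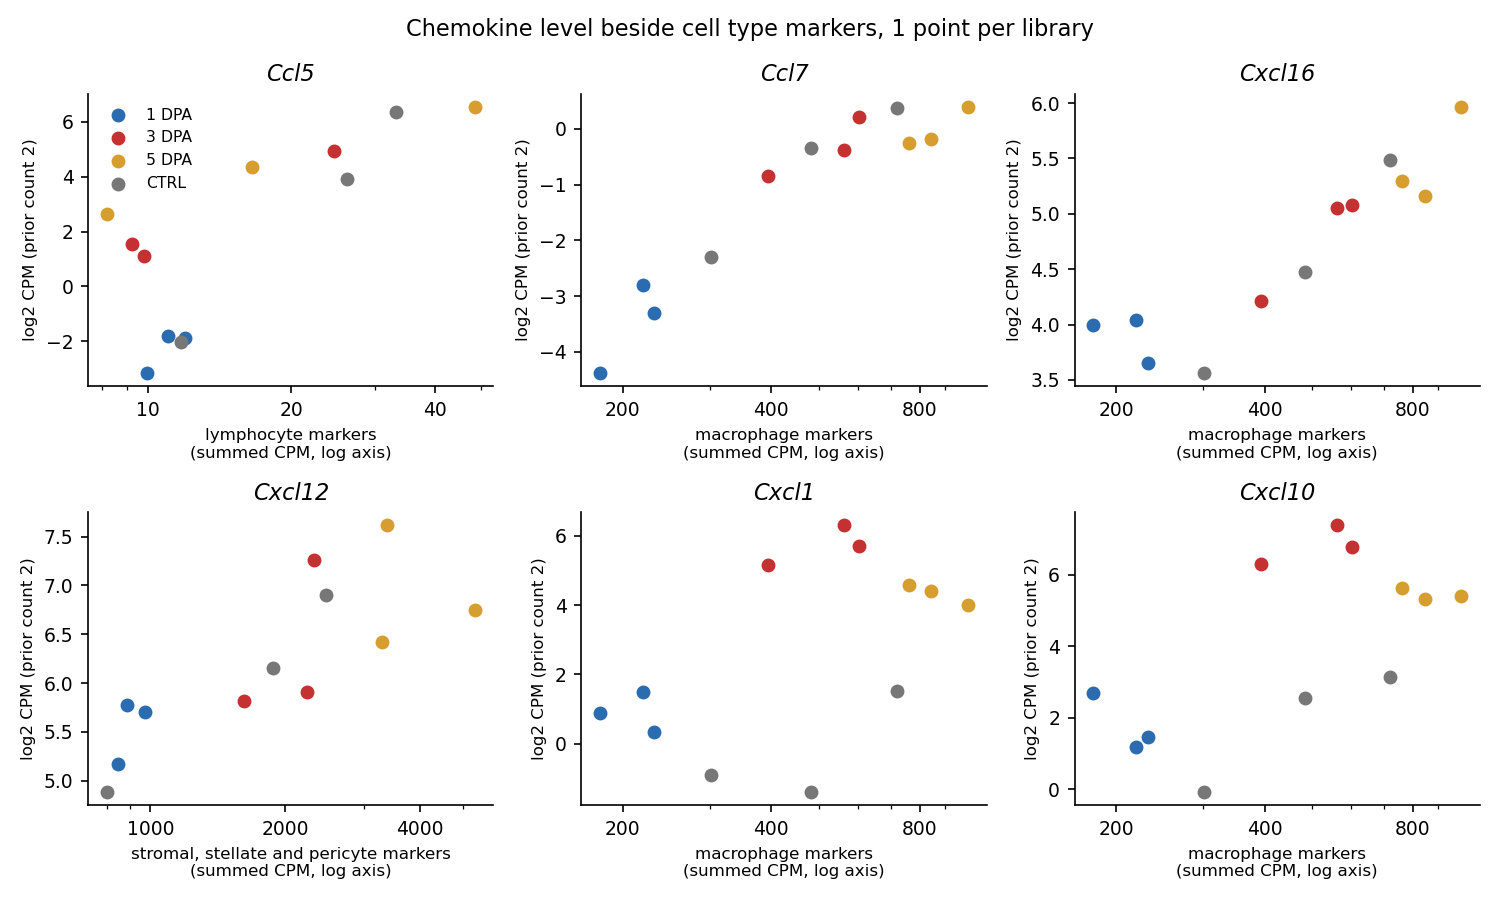
Log2 CPM of 6 chemokines (y axis, prior count 2) against the summed CPM of a cell type marker list (log x axis), 1 point per library coloured by group. The macrophage sum is 394 to 602 CPM at 3 DPA and 760 to 1003 CPM at 5 DPA, and the 3 DPA points of Cxcl1 and Cxcl10 lie above their 5 DPA points.

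Other genes with the most similar profiles were sought for the 6 chemokines that differed over the 4 groups, among 12717 genes, by the root mean square difference of mean-centred log2 CPM over the 12 libraries. Nearest to Cxcl1 was Egr1, an immediate-early transcription factor gene induced by many stimuli (difference 0.74), followed by Atf3, a stress-induced transcription factor gene (0.84), and P2rx7, an ATP-gated ion channel gene (0.86). Nearest to Cxcl2 were P2rx7 (1.31), Egr1 (1.48) and Ptgs2, which encodes the prostaglandin enzyme COX-2 (1.48). Nearest to Cxcl10 were P2rx7 (0.77), Ptgs2 (0.91) and Atf3 (1.11). Egr1 had 98.5 ± 52.6 CPM in CTRL, 514 ± 78.4 at 1 DPA, 5886 ± 2003 at 3 DPA and 2223 ± 499.5 at 5 DPA. It rose on each day (2.38 ± 0.39, 5.90 ± 0.46 and 4.50 ± 0.43; adjusted p = 0.000632, 3.85e-05 and 0.000627). Ccl2 was nearest to Rasl11b (0.43), Btc (0.46) and Mgl2 (0.50). Ccl7 was nearest to Fgr (0.49), Mrc1 (0.51) and Bcl2a1b (0.53), and Cx3cl1 to Efr3b, Hnrnpa1 and Hdhd3 (0.11 to 0.12).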

How the data were processed

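RNA from islets of 12 samples, 3 in each of 4 groups, was extracted with RNeasy Mini and made into QIAseq stranded mRNA libraries, per the labels' protocols. The authors deposited 1 table with total read counts per gene and, beside them, TPM (transcripts-per-million), per the file headers; how the TPM were computed is not stated there. Reads were placed on mm10, which is the build named per the submitters' processing notes. How reads were aligned and counted, and whether strand was used, is not given in the sources used here. The table's other 24 columns of values per sample were not used. Counts were taken as deposited, and TPM served only to set levels of different genes side by side.

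Genes were filtered with filterByExpr (minimum count 10), scaled by TMM and tested with edgeR 4.0.16 in R 4.3.3 (robust quasi-likelihood, 1 fit of all 12 samples), with Benjamini-Hochberg adjustment over the 17294 genes tested and a threshold of 0.05. Each of the 6 pairs of groups was compared, and all 4 groups together. The SE was derived from the fold change and its F statistic. Alternatives were DESeq2 1.42.0, limma-voom (limma 3.58.1), RLE scaling, no filter, a replicate block, totals computed with the 50 most abundant genes removed, only the 2 groups compared, and each sample left out. Scripts were tested on simulated data. Counts of the gene lists under these settings were added after seeing the data.

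The members and the lists were chosen with earlier results of these data known. Up to 4 called genes of smallest p were named per list and comparison, with Cxcr2, Cxcr4, Ackr1, Ackr3, Ccr2 and Cx3cr1 always, and the 3 nearest genes for each chemokine that differed over the 4 groups. Markers of duct, Schwann and mesothelial cells were not reported, and those of acinar cells only as sums in CTRL. Replicate numbers pair samples only if every same-numbered pair correlates above 0.1 in its deviations from the group means. That held for 5 against 3 DPA alone (0.156, 0.187 and 0.326). Replicates differed far beyond sampling noise (chi-square per degree of freedom 47.3 to 229.6).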

Additional observations from a re-analysis of the deposited data

Results flagged for a closer look

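Each result given here is a chemokine whose difference from CTRL was itself different between days, by edgeR's quasi-likelihood test of one day against the other over 3 libraries each. At 3 DPA against 1 DPA the log2 difference was 4.86 for Cxcl1, 6.91 for Cxcl2, 4.96 for Cxcl10, 3.08 for Ccl2, 3.96 for Ccl7 and 0.62 for Cx3cl1, with adjusted p of 0.000102 to 0.00317. All 3 libraries at 3 DPA lay above all 3 at 1 DPA for each of these 6 genes. They were picked by the same comparison, so this separation is no separate support. The share of all genes separated in this way was not computed.

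At 5 DPA against 1 DPA the log2 difference was 3.42 for Cxcl1, 5.78 for Cxcl2, 3.54 for Cxcl10, 2.44 for Ccl2, 4.25 for Ccl7, 0.53 for Cx3cl1, 1.61 for Cxcl16 and 7.78 for Ccl5, with adjusted p of 0.000182 to 0.0270. Cxcl5 differed by 3.38 (adjusted p = 0.0232) on 31 counts at 5 DPA against 2 at 1 DPA. All 3 libraries at 5 DPA lay above all 3 at 1 DPA for each of these 9 genes. Here too the genes were picked by the same comparison, and the share of all genes so separated was not computed. The differences of Cxcl16, Ccl5 and Cxcl5 missed the threshold without certain single libraries, as given with each gene.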

How the results depend on the processing

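Of the alternative values for single chemokines, 1046 kept their direction and side of the threshold, 34 lost the call, 21 gained one and 20 turned sign, none of them a called value. The number of the 10 members called at 1 DPA against CTRL was 3, and 1 with only the 2 groups compared (7 were then tested) and 1 to 5 with 1 library left out. At 3 DPA against CTRL it was 4, and 3 with no filter, 3 with only the 2 groups and 3 to 4 with 1 library left out. At 5 DPA against CTRL it was 3, and 1 with only the 2 groups and 2 to 5 with 1 library left out. At 5 against 3 DPA it was 0, and 2 by limma-voom. With the replicate block the numbers called were 3, 4 and 3 at 1, 3 and 5 DPA against CTRL, 6 at 3 against 1 DPA, 0 at 5 against 3 DPA and 9 at 5 against 1 DPA, the same as without it. At 1 DPA the 9 falls of the interferon response list were 3 with the replicate block, 3 with only the 2 groups and 4 with no filter, and the 4 falls of the NF-kB list were 2 under each. With only the 2 groups the falls of the other chemokines were 3 at 1 DPA beside 7, and the rises of the NF-kB list were 5 at 3 DPA and 1 at 5 DPA beside 8 and 4, and those of the receptors 0 at 5 DPA beside 2. The sign turned to 0.13 for Cxcl2 at 1 DPA and 0.17 for Ccl5 at 3 DPA by limma-voom, and to -0.42 for Ccl5 at 5 DPA with the replicate block. With 1 library left out, log2 fold changes against CTRL spanned 0 at 1 DPA for Cxcl2 (-1.15 to 1.202) and Cxcl10 (-1.06 to 0.14). At 3 DPA they did for Cxcl5 (-0.19 to 0.86), Cxcl12 (-0.34 to 0.81), Cxcl16 (-0.23 to 0.72), Ccl5 (-3.70 to 0.64) and Ccl7 (-0.34 to 0.78). At 5 DPA they did for Ccl5 (-1.30 to 2.39), Ccl7 (-0.048 to 1.09) and Cx3cl1 (-0.015 to 0.23). The cause was not tested. Library sizes without the 50 most abundant genes moved the median of all genes by -0.13 at 1 DPA against CTRL, 0.11 at 3 against 1 DPA and 0.15 at 5 against 1 DPA. The share of all calls that were higher became 43.3%, 59.5% and 60.7% there, beside 56.6%, 45.3% and 46.9%, and the members' counts were 3, 6 and 10 there, beside 3, 6 and 9. With 3 libraries a group and CTRL libraries that differ many-fold in Ccl5, Ccl7 and Cxcl2, a missed threshold does not show equal levels, and Cxcl5 and Ccl7 rest on few counts.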
